A study of Mus musculus with 4 samples.

Results

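Fibroblasts marked by Dpt, Gdf10 and Agtr2 were described among sorted lung cells of mouse embryos. A cell barcode was a member when at least 3 of 6 genes (Dpt, Gdf10, Agtr2, Ebf2, Ntrk2 and Mfap5) had a unique molecular identifier (UMI), which counts 1 captured transcript. Members also had under 2 UMIs per 10000 (CP10k) of Upk3b and of Sftpc, and under 1 CP10k of Tnnt2 and of Lef1. The rule chose 91 of the 8733 barcodes in which 1000 or more genes were detected and mitochondrial transcripts made up no more than 15% of UMIs. There were 0 members in mutant library 1, 17 in mutant library 2, 2 in control library 1 and 72 in control library 2. They were set against 989 barcodes with Tcf21 at 1 CP10k or more that passed the same exclusions and were not members, here called Tcf21 fibroblast barcodes. Of these, 16 and 793 came from mutant libraries 1 and 2, and 35 and 145 from control libraries 1 and 2.

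The study asked what the transcription factor Myrf does in the mesothelium, the cell sheet that covers the lung. Embryos came from matings of Myrf Fl/Fl;R26TdTomato/R26TdTomato with Wt1creERT2;Myrf Fl/Fl mice, so that tamoxifen activates Cre where Wt1 is expressed and switches on tdTomato for good in those cells and their progeny. Tamoxifen was given to all dams at E12.5 (embryonic day), with lungs collected at E16.5. The mutants were Myrf mutants with Cre and reporter, and the controls carried Cre and reporter too; the labels do not give the Myrf alleles of the controls. Each genotype was a pool of 3 to 5 lungs, and tdTomato-positive, DAPI-negative cells were sorted and loaded for droplet sequencing of 3' transcript ends. The labels call the sorted cells mesothelial, but mesothelial genes other than Wt1 were low in the members, as given below. Whether both libraries of 1 genotype came from separate pools is not in the labels, so p-values here measure only the spread between libraries, which may be technical.

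Matrix fibroblasts make the collagens, proteoglycans and elastic microfibrils of connective tissue. In the lung, adventitial fibroblasts lie in cuffs around airways and vessels, while alveolar fibroblasts and lipofibroblasts, which depend on or express Tcf21, lie beside the gas-exchange epithelium. Of the genes of the rule, Dpt encodes dermatopontin, a matrix protein that binds decorin and collagen, and Mfap5 encodes a microfibril-associated glycoprotein. Gdf10 is a secreted member of the bone morphogenetic protein family, Agtr2 is the type 2 angiotensin II receptor, Ntrk2 is TrkB, the receptor of brain-derived neurotrophic factor, and Ebf2 is a transcription factor of mesenchymal and adipose precursors.

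In mm10 (GENCODE vM21, 1-based) the genes of the rule were all protein-coding and lay apart. Dpt (ENSMUSG00000026574) was on chromosome 1 from 164796644 to 164824266. Gdf10 (ENSMUSG00000021943) was on chromosome 14 from 33923587 to 33937983, and Ebf2 (ENSMUSG00000022053) was on the same chromosome from 67233292 to 67430918. Agtr2 (ENSMUSG00000068122) was on chromosome X from 21484544 to 21489164. Mfap5 (ENSMUSG00000030116) was on chromosome 6 from 122505845 to 122529290, and Ntrk2 (ENSMUSG00000055254) was on chromosome 13 from 58806569 to 59133970. Ptn (ENSMUSG00000029838), a gene outside the rule with a UMI in 14 of 17 and 71 of 72 members of mutant library 2 and control library 2, was on the minus strand of chromosome 6 from 36714929 to 36810220.

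The sequences just before the starts of 3 of the rule's genes and of Ptn are shown because these genes define or mark the members, whose joint presence the rule imposes, and because Ebf1, Ebf2 and Ebf3 were high there too. They are RefSeq sequences of GRCm38.p6, written 5′ to 3′ on the gene's strand and cut where either RefSeq or GENCODE begins the transcript. Capitals mark CCCNNGGG, the core of the palindrome that Ebf factors are known to bind. The windows were chr1:164796413-164796643 for Dpt on the plus strand, chr14:33923337-33923586 for Gdf10 on the plus strand, chrX:21484374-21484543 for Agtr2 on the plus strand and chr6:36810221-36810429 for Ptn on the minus strand.
Dpt: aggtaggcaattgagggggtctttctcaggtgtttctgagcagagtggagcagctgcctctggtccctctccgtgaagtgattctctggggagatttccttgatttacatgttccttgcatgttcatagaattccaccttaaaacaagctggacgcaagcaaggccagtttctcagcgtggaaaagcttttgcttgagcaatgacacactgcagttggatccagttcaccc
Gdf10: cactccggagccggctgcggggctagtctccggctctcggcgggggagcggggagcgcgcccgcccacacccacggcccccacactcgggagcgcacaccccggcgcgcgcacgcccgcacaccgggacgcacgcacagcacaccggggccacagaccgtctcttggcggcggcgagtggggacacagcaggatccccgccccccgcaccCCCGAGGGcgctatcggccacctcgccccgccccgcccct
Agtr2: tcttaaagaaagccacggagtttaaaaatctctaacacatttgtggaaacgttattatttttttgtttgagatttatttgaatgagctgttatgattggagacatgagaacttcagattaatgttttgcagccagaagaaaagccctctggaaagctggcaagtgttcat
Ptn: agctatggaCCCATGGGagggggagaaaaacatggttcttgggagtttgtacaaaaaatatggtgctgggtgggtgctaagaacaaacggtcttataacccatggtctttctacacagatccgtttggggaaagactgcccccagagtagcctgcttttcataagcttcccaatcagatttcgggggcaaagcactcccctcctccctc

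Promoters were on hand for 14 of 21 genes asked for (the rule's genes and the 15 highest genes named below), with 15 windows of 250 bases before the RefSeq start. CCCNNGGG, which reads the same on both strands, was in 4 of 15 windows (those of Gdf10, Ptn, Itih5 and Col6a6) and in 11.8% of all 32851 windows of the table. The whole palindrome, which is CCCNNGGG with T before it and A after it, was in 0 of 15 windows and in 0.779% of all windows. TATAAA on either strand was in 2 of 15 windows (1 of 2 of Postn and that of Anxa1) and in 12.4% of all. A match describes letters only, and no match says only that the letters are not in these windows.

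The 4 libraries held 8184822 to 86550484 UMIs in passing barcodes, and those numbered 1 held 412 (mutant) and 282 (control) barcodes against 4432 (mutant) and 3607 (control) in those numbered 2. Members had a median of 14653 UMIs in mutant library 2, 15761 in control library 1 and 22518 in control library 2. Libraries shared 9 barcode sequences, of which 0 were members. Control library 2 stood apart: 364 of its barcodes had 3 or more of the 6 genes, and 292 of these failed the exclusions, 275 on Upk3b and 231 on Sftpc. In the other libraries 4 of 4 (mutant 1), 8 of 25 (mutant 2) and 0 of 2 (control 1) failed. The members' values are given below per library, and the share of barcodes also without each library.

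Most members of the libraries numbered 2 had 5 or 6 of the 6 genes, and members with exactly 3 were less alike. In mutant library 2, 4, 1, 8 and 4 members had 3, 4, 5 and 6 of the 6 genes, and in control library 2 the numbers were 4, 6, 22 and 40. Ptn, a heparin-binding growth factor, followed the same division. It stood at 13747 and 6917 CPM (a gene's UMIs per 1000000 UMIs of the sum) in members with 4 or more of the genes in mutant library 2 and control library 2, and at 804 and 4228 CPM in members with exactly 3. In barcodes with exactly 2, which were not members but passed the exclusions, it stood at 354 and 336 CPM. All 13 and 68 members with 4 or more genes had a Ptn UMI, against 1 of 4 and 3 of 4 with exactly 3, but 65.5% of 58 and 77.8% of 36 barcodes of the epithelial gene Epcam had one too. The Ptn level in these Epcam barcodes was 104 and 101 CPM.

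**Figure D1:**
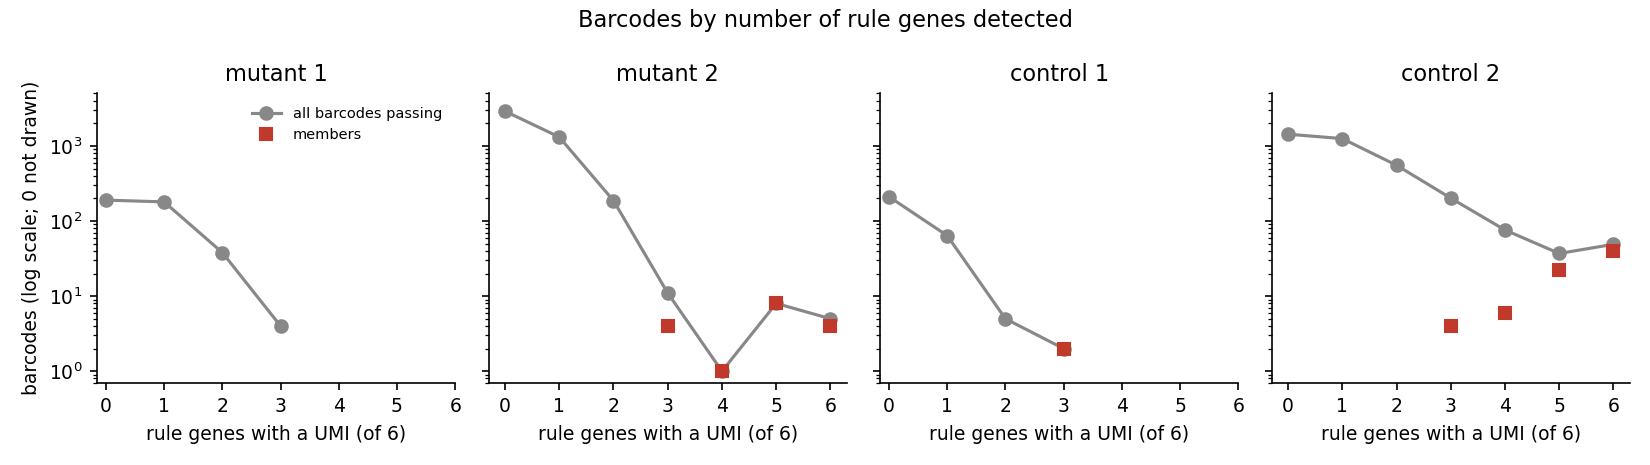
Number of barcodes (log scale) by how many of the 6 rule genes had a UMI, for mutant libraries 1 and 2 and control libraries 1 and 2, with all passing barcodes in grey and members in red. Only mutant library 2 and control library 2 have barcodes with 5 or 6 genes, 13 and 86 of them before the exclusions.

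Of the 7 label markers, 6 were the genes of the rule, so how many of those 6 a member carried was fixed by the choice. Lum, the marker outside the rule, had a UMI in 13 of 13 members with 4 or more genes in mutant library 2. In control library 2 it had one in 67 of 68. Among members with exactly 3 genes, Lum had a UMI in 2 of 4 in mutant library 2 and 3 of 4 in control library 2. Of the 4 with exactly 3 genes in mutant library 2, 3 had 0 UMIs of Dpt, Agtr2, Ntrk2 and Ptn. Of the 7 label markers, the 2 barcodes of control library 1, both with exactly 3, had 8 UMIs of Gdf10, 7 of Mfap5, 2 of Ebf2, 1 each of Dpt and Ntrk2, and 0 of Lum and of Agtr2. Gdf10 thus stood at 254 CPM and Mfap5 at 222 CPM there. These barcodes also had 0 UMIs of Dcn, Tcf21 and Wt1. They carried Acta2 at 1777 CPM and Myh11 at 1047 CPM, genes of smooth muscle and myofibroblasts. They also carried Tgfbi at 2062 CPM and Fgf18 at 857 CPM, from a list of Wnt-responsive fibroblast genes. Smooth muscle genes summed to 7519 CPM and Wnt-responsive fibroblast genes to 7487 CPM in these barcodes, and the lists share Hhip. Foxf1, a lung mesenchyme transcription factor, stood at 539 CPM there. Sums below are of the members of the libraries numbered 2, those with exactly 3 genes included unless 4 or more is stated.

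The levels of the rule's genes chose the members and are given as a description. Dpt stood at 302 CPM in members of mutant library 2 and 415 CPM in members of control library 2, against 2.30 and 10.99 CPM in Tcf21 fibroblast barcodes of the same libraries. Gdf10 stood at 220 and 435 CPM in members, against 12.54 and 4.40 CPM. Agtr2 stood at 416 and 273 CPM, against 1.86 and 10.3 CPM. All 3 were at least 10 times as high in members of either library. Mfap5 stood at 1274 and 684 CPM, against 5.94 and 4.03 CPM. Ebf2 stood at 247 and 174 CPM, against 0.223 CPM and 0 UMIs. Ntrk2 stood at 141 and 137 CPM, against 0 UMIs in 793 and in 145 barcodes, which allows up to 0.223 and 1.10 CPM (3 counts per library, counting error only). Lum, a label marker outside the rule that encodes the collagen-binding proteoglycan lumican, stood at 1118 and 638 CPM, against 33.9 and 9.16 CPM.

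Members held a large part of the RNA of some of the genes that chose them. Of all UMIs in passing barcodes of mutant library 2 and control library 2, members held 63.6 and 54.8% for Dpt, 66.7 and 47.9% for Agtr2, 63.6 and 51.7% for Ebf2, and 78.3 and 60.9% for Ntrk2. The 2 libraries differed for Gdf10 (3.76 and 44.1%) and for Mfap5 (8.71 and 27.7%). Of all passing barcodes, 0.948 and 13.6% had a UMI of Dpt, 1.08 and 12.6% of Agtr2 and 0.970 and 8.01% of Ebf2. The shares were 0.384 and 4.85% for Ntrk2, 18.8 and 45.1% for Mfap5 and 18.3 and 19.9% for Gdf10. Most genes of the rule were thus found more widely in control library 2, and the part of this in its number of members was not tested. Gdf10 had a UMI in 94.1 and 95.8% of members, and in 8.62% of 58 and 8.33% of 36 barcodes with Epcam, an epithelial gene, at 2 CP10k or more. These Epcam barcodes, which should lack Gdf10, had a median of 21798 and 10870 UMIs, against 14653 and 22518 in members.

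**Figure D2:**
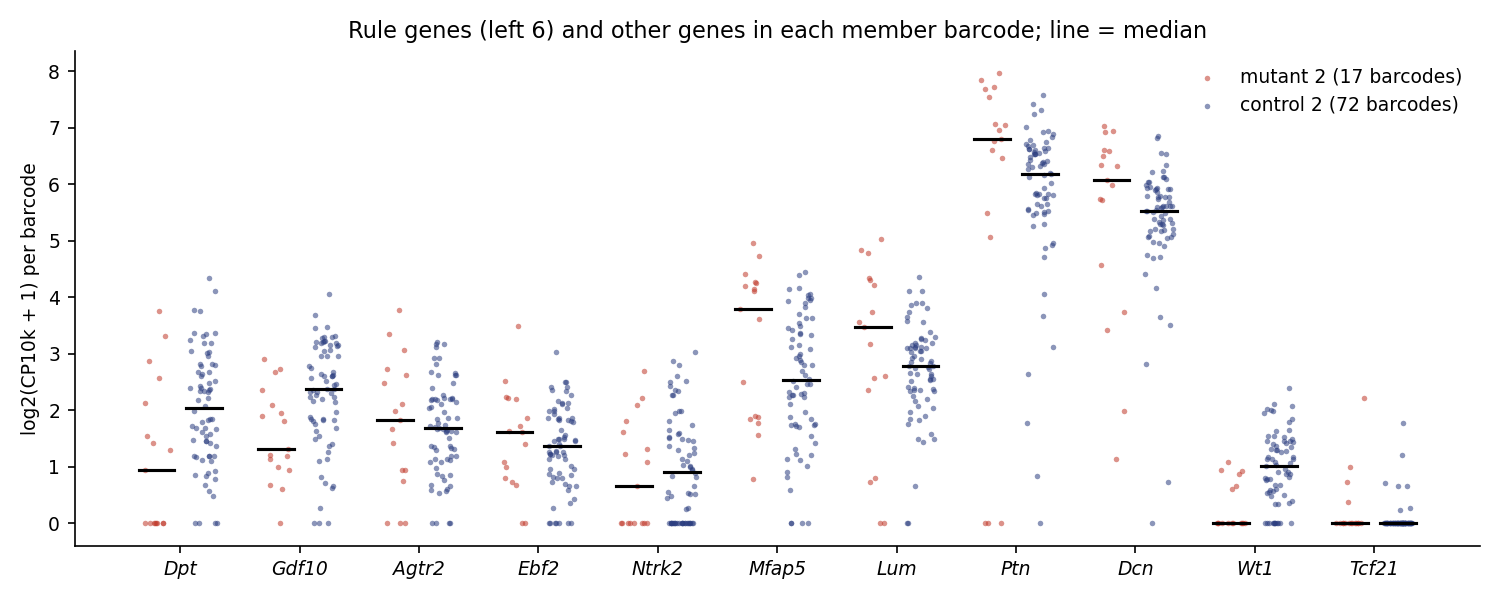
Level of 11 genes in each member barcode, as log2(CP10k + 1), for mutant library 2 (17 barcodes, red, left) and control library 2 (72 barcodes, blue, right); the line is the median. Ptn and Dcn are high in most barcodes, with medians of 110 and 71.8 CP10k for Ptn and 66.6 and 45.2 CP10k for Dcn, while Tcf21 has a median of 0 in both.

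Genes of secreted matrix were prominent among those higher in members than in Tcf21 fibroblast barcodes. Ratios are log2 of CPM + 5, taken within each library numbered 2, and carry no test because the members were chosen by their own RNA. Of 8611 genes with at least 10 CPM on average over the 4 sums, 574 (6.67%) were at least 2-fold higher in both libraries and 215 (2.5%) at least 2-fold lower, with a median ratio of -0.05. Apart from the rule's genes, the 15 highest by the smaller of the 2 ratios were Fbln2, Postn, Ptn, Itih5, Dcn, Cthrc1, Rtl3, Lum, Col6a6, Anxa3, Tnxb, Anxa1, Fst, Angptl1 and Serpinf1. Fbln2, the elastic-fibre protein fibulin 2, stood at 1059 and 903 CPM in members of mutant library 2 and control library 2, against 6.98 and 8.06 CPM in Tcf21 fibroblast barcodes. Postn, the matricellular protein periostin, stood at 1572 and 1992 CPM, against 32.6 and 24.9 CPM. Ptn stood at 10905 and 6799 CPM, against 190 and 168 CPM. Dcn, the collagen-binding proteoglycan decorin, stood at 6247 and 4552 CPM, against 183 and 131 CPM. Tnxb, the tendon and skin matrix protein tenascin X, stood at 220 and 204 CPM, against 1.11 and 4.40 CPM. Fst, the activin antagonist follistatin, stood at 169 and 91.4 CPM, against 0.0742 CPM and 0 UMIs.

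Matrix lists were high by group. Of 13 fibrillar and associated collagens, 9 were at least 2-fold higher in both libraries and 0 lower, with a median of 2.19 on the log2 scale. Col1a2 stood at 9023 and 6944 CPM in members, against 1186 and 1611 CPM in Tcf21 fibroblast barcodes. Col12a1 stood at 310 and 505 CPM, against 37.1 and 54.9 CPM. Of 7 small leucine-rich proteoglycans that met the 10 CPM minimum, 4 were higher (Lum, Dcn, Aspn and Ogn) and 0 lower. Of 16 elastic fibre and microfibril genes other than Mfap5 of the rule, 7 were higher and 0 lower, and Fbln5, needed to assemble elastic fibres, stood at 239 and 249 CPM, against 8.16 and 21.6 CPM. Mfap4 went the other way in control library 2 only, at log2 ratios of 0.31 and -1.94 in mutant library 2 and control library 2. Of 20 other interstitial matrix genes besides Dpt of the rule, 9 were higher and 0 lower. Of 13 basement membrane genes, 3 were higher and 3 lower, among them Npnt, the integrin ligand nephronectin, at 7.84 and 22.9 CPM against 162 and 343 CPM.

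Lists of fibroblast types divided in the same manner. Of 16 adventitial fibroblast genes, 14 met the minimum, and all 14 were at least 2-fold higher in members of both libraries, with a median of 3.20. The minimum averages over member and Tcf21 sums, so a gene near 0 in Tcf21 fibroblast barcodes could meet it through members alone. Of the 16, 3 and 4 had 0 UMIs in Tcf21 fibroblast barcodes of mutant library 2 and control library 2. Among the 14, Serpinf1, which encodes the antiangiogenic factor PEDF, stood at 294 and 191 CPM, against 5.42 and 6.59 CPM. Sfrp2, a secreted modulator of Wnt signals, stood at 420 and 434 CPM, against 41.2 and 21.2 CPM. Of 11 alveolar fibroblast and lipofibroblast genes other than Tcf21, 0 were higher and 7 lower in both, with a median of -2.43. Tcf21, by which the other barcodes were chosen, stood at 31.4 and 9.47 CPM, against 258 and 357 CPM. In members with 4 or more rule genes it stood at 5.02 and 7.58 CPM, and in those with exactly 3 at 125 and 50.9 CPM. Adh1, an alcohol and retinol dehydrogenase, stood at 19.6 and 47.4 CPM, against 361 and 561 CPM. Gyg, which primes glycogen synthesis, stood at 43.1 and 35.1 CPM, against 419 and 582 CPM.

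The 15 lowest genes by the smaller of both ratios were Car2, Npnt, Frem1, Col25a1, Adh1, Enpep, Gyg, Sept4, Prex2, Tcf21, Nebl, Bmp5, Adarb1, Unc5c and Ccl11. Car2, a carbonic anhydrase, stood at 11.8 and 29.5 CPM in members of mutant library 2 and control library 2, against 380 and 432 CPM in Tcf21 fibroblast barcodes. Frem1, a basement membrane matrix protein, stood at 3.92 and 7.80 CPM, against 106 and 156 CPM. Fgfr4, a fibroblast growth factor receptor, had 0 UMIs in members of both libraries, against 13.1 and 43.2 CPM.

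**Figure D3:**
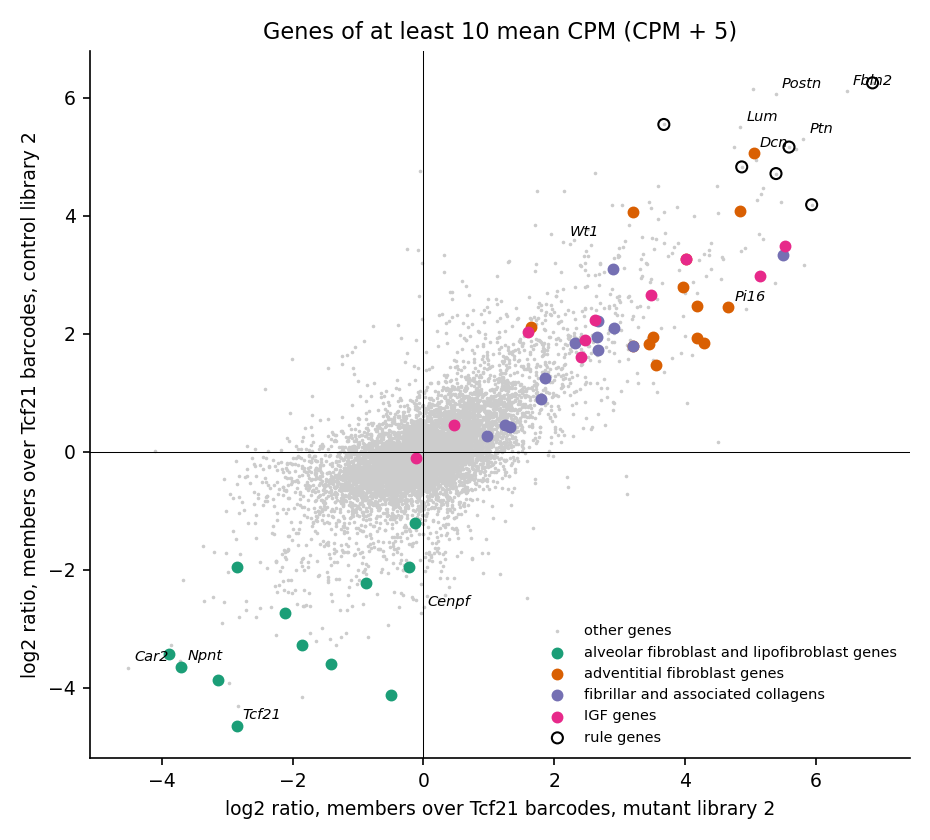
Log2 ratio of members over Tcf21 fibroblast barcodes in mutant library 2 (x) and control library 2 (y), 1 point per gene of at least 10 CPM on average (CPM + 5). All 14 adventitial genes that met this minimum lie at high ratios on both axes. Of 12 alveolar and lipofibroblast genes that met it, 8, Tcf21 among them, lie at least 2-fold below on both.

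Among transcription factors, 12 of 28 were at least 2-fold higher in both libraries and 9 lower, leaving out Ebf2 and Tcf21, which chose the barcodes. Ebf3 stood at 110 and 78.0 CPM in members, against 0.0742 CPM and 0 UMIs in Tcf21 fibroblast barcodes, and Ebf1 was higher too, at log2 ratios of 3.58 and 2.58. Twist1, a factor of embryonic mesenchyme, stood at 114 and 83.6 CPM, against 0.742 and 3.30 CPM. Osr1 (log2 ratios 2.65 and 2.64) and Klf4 (3.80 and 3.37) were higher as well. Lung mesenchyme factors were lower: Tbx4 at -2.34 and -2.63, Tbx5 at -1.46 and -2.22 and Foxf1 at -1.21 and -1.39. Snai2 (-3.22 and -2.47), Nr2f2 (-2.12 and -2.74) and Tbx2 (-1.82 and -2.61) were also lower.

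Growth factor genes were high as a group for insulin-like growth factors (IGF) and neurotrophins. Of 10 IGF genes, 8 were at least 2-fold higher in both and 0 lower, with a median of 2.31. Igf1 stood at 1161 and 728 CPM, against 99.7 and 111 CPM. Igfbp5, an IGF-binding protein, stood at 1776 and 607 CPM, against 45.0 and 72.5 CPM. The receptors Igf1r (0.47 and 0.45) and Igf2r (-0.11 and -0.11) were within 2-fold. Of 5 neurotrophin and receptor genes other than Ntrk2 of the rule, 4 were higher. They included Ntrk3, the receptor of neurotrophin 3, at 58.8 and 32.9 CPM against 1.41 and 1.83 CPM. Another was Ngfr, the low-affinity receptor, at 19.6 and 20.1 CPM against 0.742 and 0.366 CPM.

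Other pathways showed mixed members. Of 17 genes of bone morphogenetic protein signalling other than Gdf10 of the rule, 4 were higher (Fst among them) and 1 lower, Bmp5, at 7.84 and 10.0 CPM against 86.0 and 99.6 CPM. Of 11 hedgehog genes, 2 were higher and 2 lower. The higher were the co-receptors Cdon, at 90.2 and 116 CPM against 2.45 and 2.20 CPM, and Gas1, at 388 and 611 CPM against 86.8 and 69.2 CPM. The lower were Foxf1 and Ptch1, the hedgehog receptor and response gene, at 47.1 and 56.3 CPM against 172 and 232 CPM. Of 15 Wnt genes other than Lef1, which the rule kept low, 4 were higher and 3 lower, with the Wnt potentiator Rspo3 at 129 and 103 CPM against 7.27 and 0.733 CPM and the ligand Wnt2 at 19.6 and 14.5 CPM against 102 and 125 CPM. Of 6 renin-angiotensin genes other than Agtr2 of the rule, 1 was higher, the peptidase Anpep, and 1 lower, Enpep, the angiotensin-cleaving aminopeptidase A, at 0 UMIs and 4.46 CPM against 67.8 and 86.8 CPM. Counts were 3 higher and 0 lower of 13 for transforming growth factor beta, 3 and 0 of 12 for retinoic acid, and 5 and 2 of 17 for fibroblast and platelet-derived growth factors. They were 4 and 2 of 9 for Wnt-responsive fibroblast genes other than Lef1, 2 and 1 of 7 for complement and chemokines, and 7 and 1 of 22 for guidance and adhesion.

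**Figure D4:**
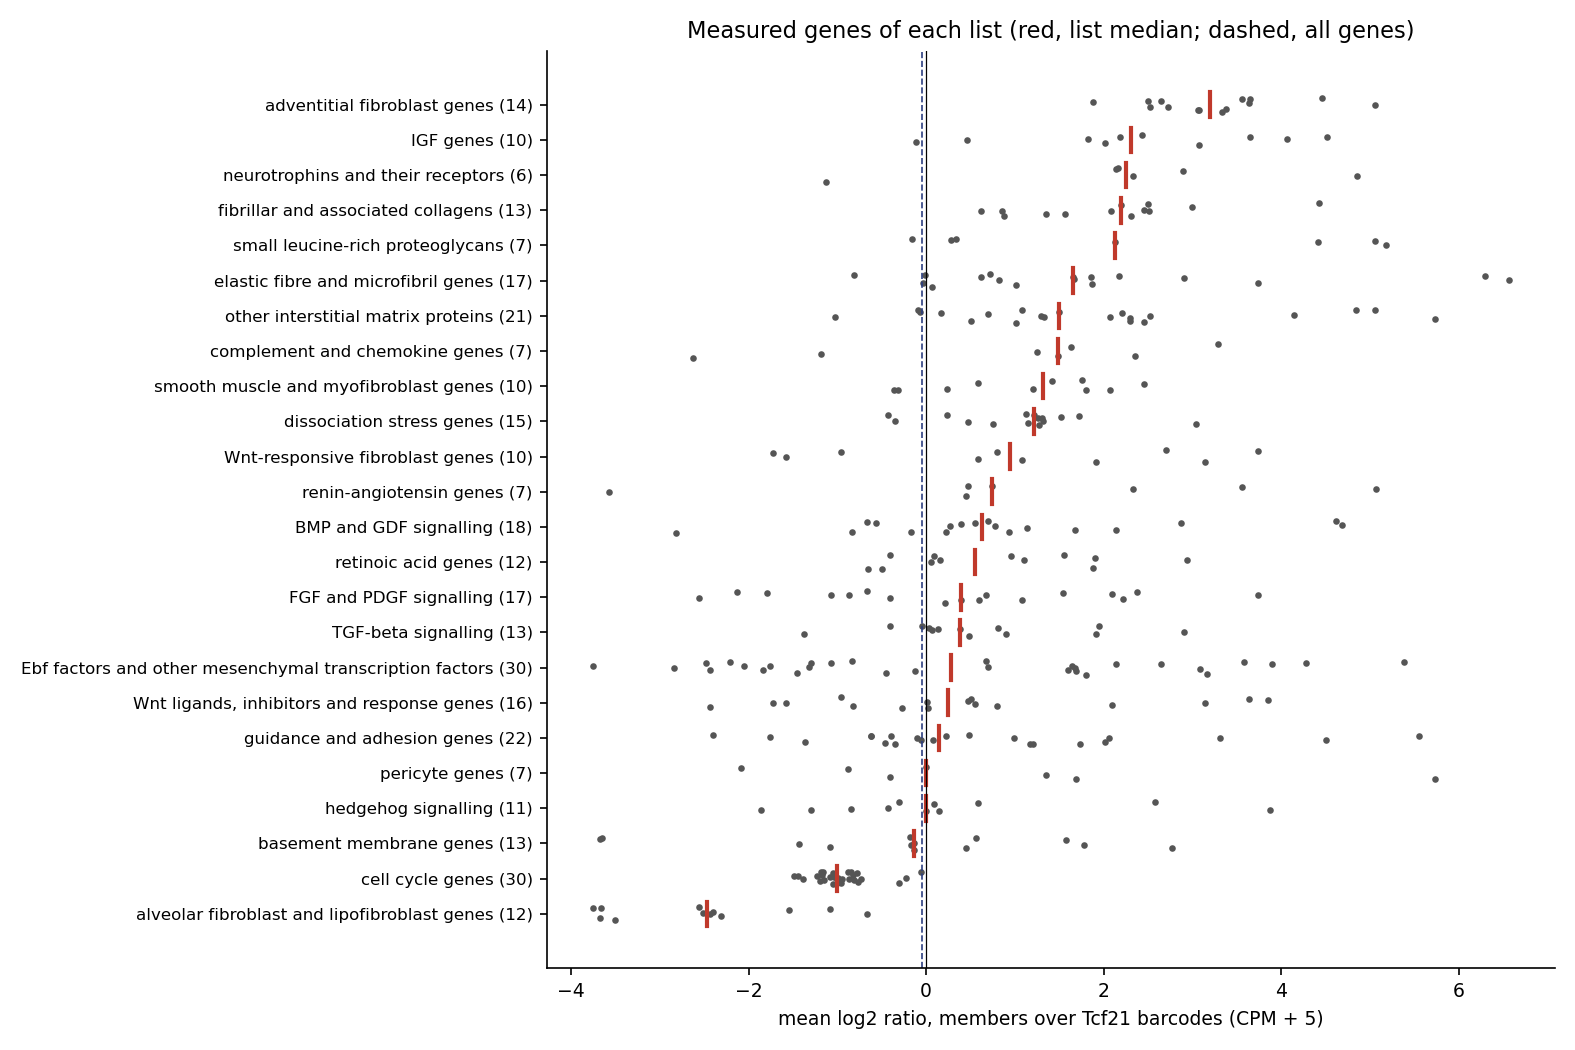
Mean log2 ratio over both libraries numbered 2, members over Tcf21 fibroblast barcodes, for each measured gene of each list (number measured in brackets); red marks the list median and the dashed line the median of all 8611 genes, -0.05. Adventitial genes sit highest, at a median of 3.20, and alveolar and lipofibroblast genes lowest, at -2.47; genes that chose the barcodes are drawn too.

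Epithelial, endothelial, immune, erythroid, chondrocyte, neural crest and cardiac markers were low in members, and mesothelial, pericyte and smooth muscle markers less so. The summed level in members of mutant library 2 and control library 2 was 19.6 and 44.0 CPM for 11 epithelial genes, 94.1 and 77.5 CPM for 9 endothelial genes, 11.8 and 15.6 CPM for 10 immune genes and 23.5 and 11.1 CPM for 7 erythroid genes. It was 35.3 and 34.0 CPM for 8 chondrocyte genes, 3.92 and 3.34 CPM for 8 neural crest genes and 11.8 and 16.7 CPM for 8 cardiac genes. Of these lists, 8 and 1 of 11 epithelial, 7 and 2 of 9 endothelial and 8 and 7 of 10 immune genes had 0 UMIs in members. Tcf21 fibroblast barcodes held 12.8 and 28.2 CPM of epithelial, 80.8 and 68.1 CPM of endothelial and 5.42 and 3.66 CPM of immune genes. Of 14 mesothelial genes, 12 were at 0 in members of mutant library 2 and 0 in control library 2, and the sums were 66.7 and 216 CPM, against 172 and 206 CPM in Tcf21 fibroblast barcodes; low Upk3b was part of the rule. Smooth muscle genes summed to 2698 and 610 CPM in members, against 1037 and 732 CPM in Tcf21 fibroblast barcodes, and 3 of 10 measured were higher and 0 lower. In members with 4 or more rule genes they summed to 206 and 489 CPM, so in mutant library 2 most of that RNA was in the 4 members with exactly 3. Pericyte genes summed to 1741 and 2226 CPM in members, against 337 and 502 CPM in Tcf21 fibroblast barcodes, of which Postn alone gave 1572 and 1992 CPM in members, and 2 of 7 were higher and 1 lower.

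Members carried Wt1, the gene that drives Cre, above the other fibroblasts. Wt1 stood at 31.4 and 110 CPM in members of mutant library 2 and control library 2, against 3.27 and 4.76 CPM in Tcf21 fibroblast barcodes and 2.66 and 16.6 CPM in Epcam barcodes. Of members, 35.3 and 83.3% had a Wt1 UMI, against 5.17% of 58 and 9 of 36 Epcam barcodes. Myrf, the targeted gene, had 0 UMIs in members of mutant library 2, which allows up to 11.8 CPM, and 7.24 CPM (95% Poisson interval 3.86 to 12.4) in members of control library 2. Tcf21 fibroblast barcodes held 2.52 and 4.40 CPM, so no difference in Myrf between genotypes was detectable in members at this depth. A 3' count also need not read the floxed exons.

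Cycling RNA was in a smaller share of members than of Tcf21 fibroblast barcodes in both libraries. After thinning to 8000 UMIs, Mki67 or Top2a, genes of dividing cells, had a UMI in 6 of 17 members (35.3%) of mutant library 2 and 20 of 71 (28.2%) of control library 2. In Tcf21 fibroblast barcodes it had one in 60.5% of 711 and 44.7% of 132. Unthinned shares were 35.3 and 44.4% in members, against 64.6 and 55.2%. Of 30 cell cycle genes, 0 were 2-fold lower or higher in both libraries, against 2.5% lower and 6.67% higher of all 8611 genes. Their median was -1.01 over both, and -0.46 in mutant library 2 and -1.45 in control library 2. In mutant library 2, 10 of them were at least 2-fold lower and in control library 2, 17 were. The share of all genes 2-fold lower in a single library was not taken, so these counts have no background. Genes of dissociation stress moved with the members: 4 of 15 were at least 2-fold higher and 0 lower, with a median of 1.21. They summed to 4015 and 6911 CPM in members, against 2319 and 2161 CPM, and their part in the other ratios was not tested.

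Within the 72 members of control library 2, levels varied widely, and Ptn, Dcn and Lum varied together. Per barcode, Ptn ran from 0 through a median of 71.8 to 190 CP10k, Dcn from 0 through 45.2 to 114 CP10k and Dpt from 0 through 3.09 to 19.1 CP10k. In mutant library 2, Ptn ran from 0 through 110 to 249 CP10k and Dpt from 0 through 0.912 to 12.4 CP10k. Pearson's r across the 72 barcodes, on 1 library and with depth shared by both genes, was 0.76 for Ptn and Dcn (Spearman's rho 0.61), 0.71 for Lum and Dcn (0.44) and 0.60 for Gdf10 and Ptn (0.52). Gdf10 and Wt1 had 0.48 (0.42). Lum and Ptn had 0.64 (0.40). Among genes of the rule, the highest were Ebf2 and Ntrk2 at 0.39 (0.35), Dpt and Agtr2 at 0.37 (0.32) and Gdf10 and Ebf2 at 0.36 (0.30). Dpt and Gdf10 had 0.10 (0.10), Gdf10 and Agtr2 0.05 (0.04), and Dpt and Ntrk2 -0.13 (-0.13). The genes of the rule chose these barcodes and, as for Dpt, stood at far lower counts than Ptn and Dcn, so their correlations are not directly comparable. All are descriptions of 1 library.

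Members made up a smaller share of mutant than of control libraries, and the difference lay within what 4 libraries can show. The share was 0% (0 of 412, which allows up to 0.728%) in mutant library 1 and 0.384% (exact binomial 95% interval 0.224 to 0.613) in mutant library 2. It was 0.709% (0.0860 to 2.54) in control library 1 and 1.996% (1.57 to 2.51) in control library 2. Both mutant libraries were below both control libraries. The means were 0.192 ± 0.271% in mutants and 1.35 ± 0.910% in controls (SD, n = 2 each), a difference of -1.16 percentage points. A two-sided exact permutation test gave p = 0.333, the smallest that 2 against 2 allows. Without control library 2 the difference was -0.517 points and without control library 1 it was -1.80 points, and the 2 barcodes of control library 1 went against the label. With at least 4 genes required, the shares were 0 and 0.293% in mutants and 0 and 1.89% in controls (exact permutation p = 1). Of members and Tcf21 fibroblast barcodes together, members were 0 and 2.10% in mutants and 5.41 and 33.2% in controls.

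The test of genotype in members (edgeR quasi-likelihood, Benjamini-Hochberg adjusted p under 0.05) called 0 of 5641 genes (0%). It used 3 sums, since mutant library 1 has no member and drops out, so that the mutant side was 1 library. The 1 residual degree of freedom is the spread between control library 2 and the 2 barcodes of control library 1 (31522 UMIs). Those barcodes carried the muscle and Wnt-responsive fibroblast genes given above, so the test says little of genotype. At an unadjusted p under 0.05 it had 75 genes, and DESeq2 called 0 of 10537. The lowest edgeR adjusted p was 0.121, for Ren1, which encodes renin, at a log2 change of 5.84 ± 1.37 (SE), and the lowest over the alternatives ran from 0.0896 to 0.9999. On simulated data with the same sums, the edgeR step recovered 0% of genes changed 2-, 4- or 8-fold and 4% of those changed 16-fold. The fit of the difference between populations, given last here, also had 1 residual degree of freedom and used the 2 barcodes of control library 1. There the edgeR step recovered 0% of genes changed 2- or 4-fold, 6% of those changed 8-fold and 14% of those changed 16-fold. In Tcf21 fibroblast barcodes it called 0 of 10086 genes (0%; 124 at unadjusted p under 0.05, DESeq2 0), a count that moved to 379 without mutant library 1 and 53 without mutant library 2. It was 6 without control library 2 and 1 without control library 1. The difference of the genotype effect between the populations was called for 0 of 10864 genes (0%; 117 at unadjusted p under 0.05, DESeq2 0).

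Mutant library 2 and control library 2 were also set side by side over members with 4 or more rule genes, 13 and 68 barcodes. That is 1 library per genotype, so it has no replicate check and no test, and the intervals given are 95% Poisson intervals of counting error. The libraries differed in sex too: of members with Xist or Y-linked UMIs but not both, 94.1% of 17 in mutant library 2 and 6.90% of 58 in control library 2 had Xist, and 9 of 72 in control library 2 had both. In Tcf21 fibroblast barcodes the shares were 83.1 and 57.8%. Genotype, library and sex cannot be told apart in these values. Over 8571 genes, 462 (5.39%) were at least 2-fold higher and 983 (11.5%) at least 2-fold lower in mutant library 2 members, against 14 (0.163%) and 117 (1.37%) in Tcf21 fibroblast barcodes, which were more numerous.

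Adventitial genes were higher in mutant library 2 members. Of 16, 10 were at least 2-fold higher in its members and 0 lower, with a median log2 ratio of 1.4996. The median was -0.07 over the 8571 genes and -0.13 for the same list in Tcf21 fibroblast barcodes. Pi16, a marker of a universal fibroblast state, stood at 171 CPM (118 to 239) in mutant library 2 members and 23.3 CPM (16.7 to 31.7) in control library 2 members. Dpp4, a peptidase of the same cells, stood at 111 CPM (69.3 to 167) and 14.6 CPM (9.43 to 21.5). Cd34, a sialomucin of progenitors, stood at 312 CPM (239 to 399) and 88.0 CPM (74.5 to 103). Pi16 had a UMI in 8 of 13 and 12 of 68 barcodes, and no barcode held more than 8 of the 34 UMIs in mutant library 2. Gsn (log2 -0.67) and Igfbp6 (-0.63) were the lowest of the list.

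Secreted factors and cell cycle genes were among the highest and lowest. Ren1 stood at 171 CPM (118 to 239) in mutant library 2 members, with UMIs in 9 of 13, and 2.33 CPM (0.635 to 5.97) in control library 2 members, with UMIs in 3 of 68. Some mouse strains carry a near-identical Ren2 gene, so its reads may be shared. Sema3c, a guidance factor, stood at 618 and 81.6 CPM, and Bmp7 at 116 and 12.2 CPM. Cell cycle genes were 2-fold higher for 15 of 30 and lower for 5, with a median of 0.88 against 0.23 in Tcf21 fibroblast barcodes, and the higher ones came from few barcodes: Ube2c, at 472 and 40.8 CPM, had UMIs in 4 of 13. In the other direction, Cxcl13, a B cell chemokine, had 0 UMIs in mutant library 2 members, which allows up to 15.1 CPM, and 209 CPM in control library 2 members, where 20 of 68 barcodes had it. Tgfb3 stood at 5.02 and 84.5 CPM, and Col15a1 at 10.0 and 119 CPM. Basement membrane genes were 0 higher and 10 lower of 18, with a median of -1.14, against -0.67 for the same list in Tcf21 fibroblast barcodes. Of the 18, 6 had 0 UMIs in mutant library 2 members and 0 did in control library 2 members. The same share over all genes was not taken. The sums held 199023 and 1715935 UMIs, and the part of this depth in the count was not tested. Stress genes were 0 higher and 6 lower of 15, summing to 4246 and 6825 CPM, with a median of -0.78 against -0.09 in Tcf21 fibroblast barcodes, and their part in these differences was not tested.

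**Figure D5:**
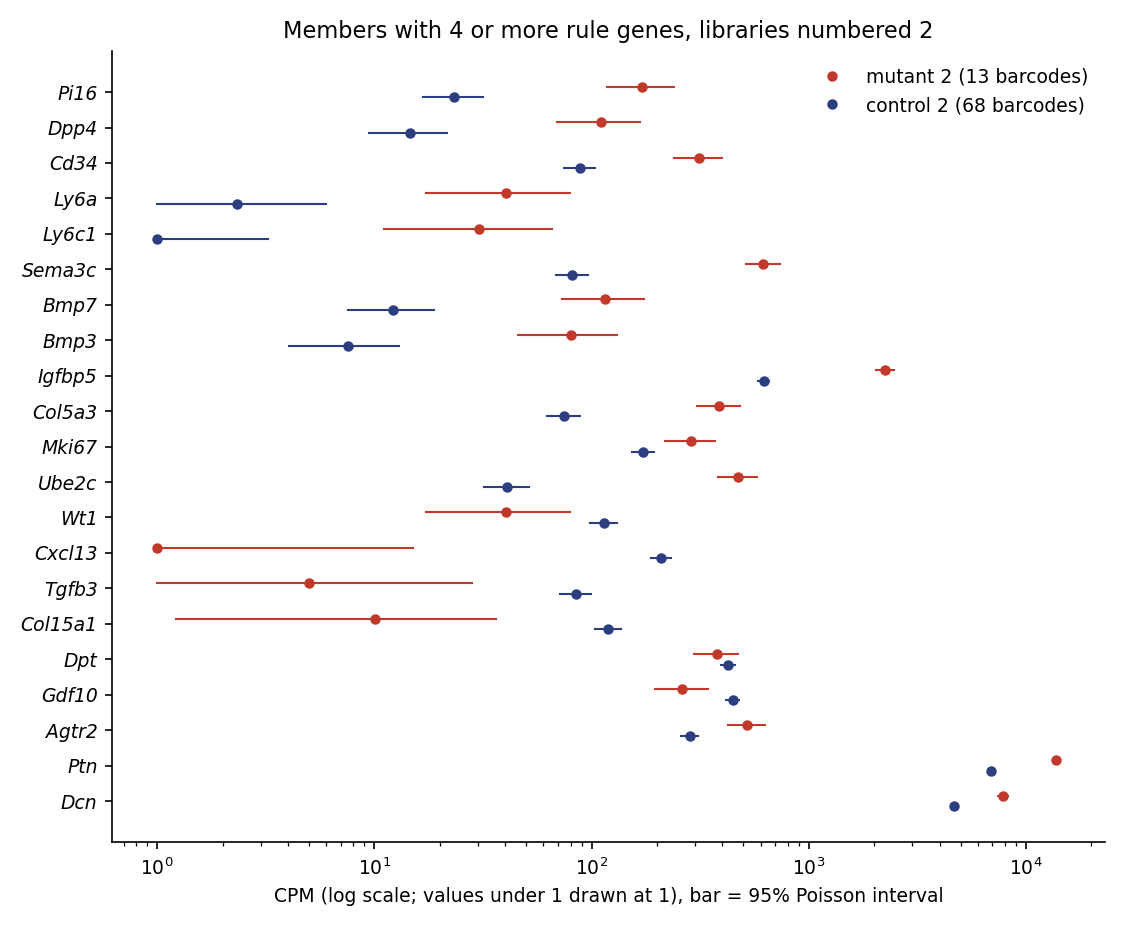
Level of 21 genes in members with 4 or more rule genes, in mutant library 2 (13 barcodes, red) and control library 2 (68 barcodes, blue), in CPM on a log axis with 95% Poisson intervals; values under 1 are drawn at 1. Pi16, Dpp4, Sema3c and Bmp7 are higher in mutant library 2, Cxcl13, Tgfb3 and Col15a1 lower, and the summed level of Dpt differs little. Of all members, those with exactly 3 genes included, 52.9% in mutant library 2 and 94.4% in control library 2 had a Dpt UMI.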

How the data were processed

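The deposited values were whole-number UMI counts per gene and barcode, made by the authors with Cell Ranger 6.0.2 on mm10, as the submitters' processing notes and the file headers state, with no normalization. The annotation release, barcode calling and strand settings are not given in the sources used here. The members and gene lists were chosen with earlier results of these data known. Counts of all 32285 genes were read in Python 3.11.15 (scanpy 1.11.5 for Scrublet), filtered by the rule and summed per library. CPM scales a sum to 1000000 UMIs. Named genes were the rule's and label's genes, Tcf21, Myrf and Wt1, the 15 highest and 15 lowest by the smaller ratio over the libraries numbered 2 (at least 50 mean CPM in either population), and up to 4 genes of each list by size of the mean ratio; genes past the threshold of the genotype tests would have been named too. Genes compared between the libraries numbered 2, and other genes cited from lists, were chosen after their values were seen. Sums were tested with edgeR 4.0.16 in R 4.3.3 (filterByExpr, TMM, glmQLFit, glmQLFTest, two-sided), and with DESeq2 1.42.0. The test of the difference between populations had library as a block. List counts leave out genes that chose the barcodes, a choice made after seeing the data. edgeR was tested on simulated counts with 200 changed genes. Scrublet's own threshold marked 1, 0, 3 and 3 barcodes in mutant libraries 1 and 2 and control libraries 1 and 2, so it did not work; doublets were kept, and the highest scores were removed (0.8% per 1000 barcodes) as an alternative, which took 0, 0, 0 and 3 members. Replicate libraries differed beyond sampling noise (chi-square over degrees of freedom 12.2 in mutants and 13.7 in controls, over Tcf21 fibroblast barcodes). Of the gene IDs, 32158 matched GENCODE vM21. Intervals cover counting error only.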

Additional observations from a re-analysis of the deposited data

How the results depend on the processing

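The mean share of members was lower in mutants under every alternative run, at -0.517 to -1.80 points with 1 library left out. The -0.517 points, without control library 2, rested on the 2 barcodes of control library 1. The difference was -0.796 with at least 4 genes, -0.566 with 0 UMIs of the exclusion genes, -1.14 without the highest Scrublet scores and -1.03 after thinning to 8000 UMIs. Chosen after seeing the data, -4.63 without exclusion genes and -1.05 with at least 5 genes and no exclusion were also run. Mutant library 1 and control library 1 were both at 0% with at least 4 genes, with at least 5 genes and after thinning. Without exclusion genes, mutant library 1 was at 0.971% and control library 1 at 0.709%. In these 4 settings the lower mean in mutants thus came from the libraries numbered 2. In members and in the difference between populations, 0 genes were called under every alternative that could be fitted; a replicate block, leaving out mutant library 2 or a control, and the rule of 4 genes left no residual degrees of freedom or no library for members. In Tcf21 fibroblast barcodes the count was 10 without a low-count filter and 1 to 379 with 1 library left out, where the lone library is assumed to vary like the other group. With the replicate block it was 22; same-numbered libraries deviated together (correlation 0.36), with 2 pairs only, so they share a number and no known pairing. Of 228 values of 38 named genes under 6 settings, 0 changed sign, 161 moved by less than 1 SD of the 2 libraries and 67 by more, 62 of these to a larger ratio. All but Myrf and Wt1 chose the barcodes or were picked for extreme ratios in the same barcodes, so the lack of sign changes was largely fixed in advance. The setting with CPM + 1 in place of CPM + 5 by itself enlarges ratios of genes near 0, as for Ebf2, from 5.38 to 7.56. The 17 and 72 members limit what can be seen: a gene with 0 UMIs in mutant library 2 can stand at up to 11.8 CPM.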
